A study of Mus musculus with 60 samples.

Results

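The genes of respiratory complexes II to V, with cytochrome c, were read out in the prefrontal cortex of young mice that carried the Trip12 genotypes HT or WT and received fluoxetine, lithium or vehicle. The members were every row of the deposited table whose Ensembl ID maps to Sdha, Sdhb, Sdhc, Sdhd, Cyc1, Cycs, a symbol starting with Uqcr, Cox4, Cox5, Cox6, Cox7, Cox8 or Atp5, or the mitochondrial genes mt-Co1, mt-Co2, mt-Co3, mt-Cytb, mt-Atp6 and mt-Atp8, with pseudogenes left out. The rule found 52 members among the 18088 genes of the table: 4 of complex II, 10 of complex III, 1 for cytochrome c, 18 of complex IV and 19 of complex V. Of these, 46 are encoded in the nucleus and 6 on the mitochondrial chromosome, and all 52 passed the filter on low values. The rule used names, not values. Of the 56 symbols of protein-coding genes that it covers in the annotation, Cox7b2, Cox8b, Cox8c and an additional ID for Atp5o have no row and are not analysed here.

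Poly(A)-selected, stranded RNA libraries were made from C57BL/6J mice on postnatal day 25, after drug was given through the mother's milk from postnatal day 3 to 24. The 60 libraries fall into 12 groups of 5: HT fluoxetine, HT lithium, HT vehicle, WT fluoxetine, WT lithium and WT vehicle, each in males and in females. HT stands for heterozygous for Trip12, which encodes a HECT-domain ubiquitin ligase. The labels give no allele, dose, litter or vehicle composition. They do not say whether every library came from its own animal, so p-values measure only the spread between these libraries, which may be technical. In the text an arm is a genotype and treatment with both sexes, 10 libraries.

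Trip12 itself had 5720 to 6953 normalized counts (median 6137) in HT vehicle libraries and 5099 to 6126 (median 5791) in WT vehicle libraries. The HT minus WT difference in log2 was 0.12 ± 0.038 under vehicle (SE; limma adjusted p = 0.252), 0.13 ± 0.038 under fluoxetine (adjusted p = 0.123) and 0.08 ± 0.038 under lithium (adjusted p = 0.325). The transcript was no lower in the libraries labelled HT than in those labelled WT, and with the allele not given its level does not check the genotype labels. Depth moved with treatment: recovered reads per library, in megareads (M), ran from 32.7 to 36.6 M under fluoxetine, from 25.1 to 35.9 M under lithium and from 26.6 to 31.0 M under vehicle, so the fluoxetine and vehicle ranges do not overlap.

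Complexes II, III and IV of the mitochondrial inner membrane pass electrons onward. Complex II, succinate dehydrogenase, takes them from succinate in the tricarboxylic acid cycle; complex III, the cytochrome bc1 complex, passes them from ubiquinol to cytochrome c; complex IV, cytochrome c oxidase, passes them to oxygen. Complexes III and IV pump protons, and complex V, ATP synthase, lets them back to make ATP. All subunits of complex II are nuclear-encoded, whereas complexes III, IV and V each join nuclear subunits with subunits made inside the mitochondrion. Neurons draw most of their ATP from this chain.

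Reads of several members can also come from near-identical copies elsewhere in the nuclear genome. A block of chromosome 1, from base 24613189 to base 24616197 of GRCm38, carries copies of mt-Co3, mt-Atp6, mt-Co2 and the end of mt-Co1 that have rows of their own in the table. The following 60 bases of mt-Co2, positions 311 to 370 of its transcript, and the same stretch of its copy Gm28661 show why reads cannot be assigned to either, since no base differs.
mt-Co2: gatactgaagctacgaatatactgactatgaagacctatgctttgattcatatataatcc
Gm28661: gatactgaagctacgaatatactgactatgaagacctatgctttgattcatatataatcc
In mt-Co1 the chromosome 1 copy Gm29216 differs at 1 base of 483, A1066T counted from the first base of the mt-Co1 transcript, and a copy on chromosome 2, Gm13340, differs at 37 bases of 1545. The capitals below mark the differing base, within positions 1063 to 1122.
mt-Co1: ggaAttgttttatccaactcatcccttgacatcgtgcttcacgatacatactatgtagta
Gm29216: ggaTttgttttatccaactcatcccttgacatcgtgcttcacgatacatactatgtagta
The nuclear member Atp5g2, a gene for the c subunit of ATP synthase, has a copy on chromosome 7, Gm10175, that is identical over all 441 bases of its transcript. Cycs shares 945 of 946 aligned bases with Gm10053 on chromosome 19, which is annotated as protein-coding.

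Short motifs were searched in the members' promoters, and the windows printed come from 6 members called lower under fluoxetine in HT cortex below. Of the 46 nuclear members, 33 matched a promoter in the RefSeq table for GRCm38.p6, and the 250 bases before each gene's start were searched on both strands. NRF1 and GABP are transcription factors known for acting at respiratory chain promoters, and ERR stands for the estrogen-related receptors. In the printed windows the capitals are the motif, and all are given on the gene's own strand.
Sdhd, NRF1 motif, chr9:50603907-50603940, minus strand: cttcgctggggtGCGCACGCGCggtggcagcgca
Uqcrh, GABP motif, chr4:116075071-116075092, minus strand: gagtatgccgcaCTTCCGGcca
Cox6b1, GABP motif, chr7:30626124-30626154, minus strand: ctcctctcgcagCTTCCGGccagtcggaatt
Atp5e, GABP motif, chr2:174464185-174464215, minus strand: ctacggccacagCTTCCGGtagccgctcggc
Atp5k, NRF1 motif, chr5:108434428-108434461, minus strand: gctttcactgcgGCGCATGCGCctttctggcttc
Atp5g3, ERR motif, chr2:73911358-73911390, minus strand: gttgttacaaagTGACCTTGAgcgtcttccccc
The NRF1 motif, GCGCA and GCGC with any base between them, stood in 7 of the 33 members (21.2%) and in 4.23% of all 27025 promoters in the table. The GABP motif CCGGAAG stood in 9 members (27.3%) and in 7.83% of all promoters. The ERR motif TCAAGGTCA was found in 1 member (3.03%, against 0.422% of all promoters), the YY1 motif, AAGATGG followed by CGG, in 1 (3.03%, against 0.359%) and the SP motif GGGGCGGGG in 4 (12.1%, against 11.8%). No sites of different motifs overlapped. Of the members with an NRF1 motif, Sdhd and Atp5k were called lower under fluoxetine in HT cortex. Sdha, Cox6a1, Atp5c1, Atp5h and, as deposited, Atp5g2 were not. Of those with a GABP motif, Atp5h, Cox6a1 and Uqcr11 were not called. Whether a motif goes with a lower level was not tested. A match describes letters and is no measure of binding.

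Per kilobase of transcript, the 6 mitochondrial members led in WT vehicle cortex, with mt-Co1, the catalytic subunit of complex IV, at 460090 ± 47901 normalized counts per kilobase (SD, n = 10), and with mt-Cytb, the cytochrome b of complex III, at 212984 ± 26313. Among nuclear members the highest per-kilobase levels were those of Cox8a (14829 ± 1448), Cox4i1 (13752 ± 1453), the catalytic β subunit gene Atp5b (13008 ± 788) and Cox6a1 (10574 ± 780). Neighbours among the first 3 of these, Cox8a with Cox4i1 and Cox4i1 with Atp5b, differed by less than 1 SD of the higher, while Cox6a1 lay further below. In complex II, Sdha, the flavoprotein that oxidises succinate, stood at 3488 ± 91.0 normalized counts per kilobase, the iron-sulfur subunit Sdhb at 2314 ± 125, and the membrane anchors Sdhd and Sdhc at 1551 ± 86.1 and 542 ± 35.4.

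Where complex IV has alternative isoforms, the ubiquitous forms stood far above the tissue-restricted ones. Cox4i1 exceeded Cox4i2, an isoform best known from lung, at 39.7 ± 8.77 normalized counts per kilobase. Cox6a1 exceeded the muscle-type Cox6a2 (161 ± 31.7). Cox6b1 (6810 ± 570) exceeded the testis-type Cox6b2 (48.7 ± 12.4). Cox7a2 (3872 ± 364) and Cox7a2l (2864 ± 161), a paralog known for joining complexes III and IV, exceeded the muscle-type Cox7a1 (28.3 ± 14.7). The c subunit of ATP synthase differed in this respect: Atp5g1 and Atp5g3 stood at 5380 ± 419 and 5310 ± 533, and Atp5g2, at 362 ± 55.6 as deposited, stood at 3567 ± 244 once its identical copy was added. The proteins of these 3 genes differ only in the leader that is removed on import.

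Under fluoxetine, nuclear transcripts of all 4 complexes were lower than under vehicle in HT cortex. In the limma fit over all genes, 20 of the 46 nuclear members were lower and none higher at an adjusted p under 0.05, and of the 6 mitochondrial members mt-Cytb and mt-Atp8 were higher. Among all 17804 genes tested, 5.54% were called lower and 4.7% higher. The calls were spread over the complexes: 3 of 4 in complex II, 5 of 9 nuclear members in complex III, 6 of 15 in complex IV and 6 of 17 in complex V, while Cycs was not called. The changes were small. The median log2 difference over the nuclear members was -0.16, against 0.00 over all genes tested, and called members ranged from -0.16 to -0.34. In bulk tissue, fewer cells of a type and less RNA per cell cannot be told apart.

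In complex II, the anchor Sdhd had 1453 to 1775 normalized counts (median 1674) in HT fluoxetine libraries, against 1728 to 2029 (median 1862) in HT vehicle libraries. Sdhc, the other anchor, had 1337 to 1597 (median 1495) in HT fluoxetine libraries, against 1557 to 1772 (median 1688) in HT vehicle libraries. For both genes all 10 fluoxetine libraries lay below the vehicle mean of their own sex, and the arms overlapped at their edges. The log2 difference was -0.19 ± 0.041 for Sdhd (limma adjusted p = 0.0018) and -0.19 ± 0.035 for Sdhc (adjusted p = 0.000376). Sdhb also fell, by 0.16 ± 0.045 (adjusted p = 0.0136). Sdha, the most abundant of the 4 and the most even member over the 60 libraries, had 9395 to 10654 (median 9957) in HT fluoxetine libraries and 9658 to 10836 (median 9965) in HT vehicle libraries, with a log2 difference of -0.04 ± 0.028 (adjusted p = 0.435).

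In complex III, Cyc1, which carries the heme that reduces cytochrome c, had 2554 to 3549 normalized counts (median 2951) in HT fluoxetine libraries, against 2839 to 3822 (median 3518) in HT vehicle libraries. The hinge protein gene Uqcrh had 2079 to 2831 (median 2340) in HT fluoxetine libraries, against 2576 to 3440 (median 2867) in HT vehicle libraries. Cyc1 fell by 0.21 ± 0.047 on the log2 scale (limma adjusted p = 0.00275) and Uqcrh by 0.29 ± 0.069 (adjusted p = 0.00478), with 9 of 10 fluoxetine libraries below their vehicle mean for each, and the arms overlapped. The small subunits Uqcr10 (log2 difference -0.34) and Uqcrq (-0.26) and the core protein Uqcrc1 (-0.21) were also called lower. The Rieske iron-sulfur protein gene Uqcrfs1 (-0.08), the core protein gene Uqcrc2 (-0.11), Uqcr11 (-0.17) and Uqcrb (0.06) were not.

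In complex IV, Cox4i1, an early-assembling subunit, had 7468 to 9672 normalized counts (median 8174) in HT fluoxetine libraries, against 7539 to 11158 (median 10622) in HT vehicle libraries. Cox7a2 had 1694 to 2312 (median 2042) in HT fluoxetine libraries, against 2125 to 2529 (median 2395) in HT vehicle libraries. All 10 fluoxetine libraries lay below the same-sex vehicle mean for both genes, although the Cox4i1 arms overlapped through 1 low library, HT vehicle male replicate 1, and the Cox7a2 arms at their edges. Cox4i1 fell by 0.30 ± 0.062 (limma adjusted p = 0.0013) and Cox7a2 by 0.22 ± 0.054 (adjusted p = 0.00707). Cox6b1, Cox6c, Cox7b and Cox7c were called lower too, at -0.17 to -0.24. Cox7c shares 192 identical bases with a copy on chromosome 11, Gm12338, and with the copy's counts added its difference was -0.13 ± 0.055 (adjusted p = 0.111), which ends the call. Cox5a, Cox6a1 and Cox7a2l were at -0.00, -0.00 and -0.07, and Cox5b and Cox8a at 0.15 and 0.10, none of them called. The rare isoforms Cox4i2, Cox6a2, Cox6b2 and Cox7a1 were not called.

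In complex V, Atp5g3, a c subunit gene, had 2421 to 3513 normalized counts (median 3006) in HT fluoxetine libraries, against 2940 to 4052 (median 3809) in HT vehicle libraries. Atp5l, which encodes subunit g of the membrane part, had 1704 to 2540 (median 2096) in HT fluoxetine libraries, against 2155 to 2889 (median 2697) in HT vehicle libraries. Both arms overlapped, with all 10 fluoxetine libraries below their same-sex vehicle mean. Atp5g3 fell by 0.30 ± 0.055 (limma adjusted p = 0.000497) and Atp5l by 0.32 ± 0.062 (adjusted p = 0.000743). Atp5e, the ε subunit gene of the central stalk, was the only member whose arms did not overlap: 606 to 780 (median 720) in HT fluoxetine libraries, against 782 to 964 (median 907) in HT vehicle libraries, a fall of 0.33 ± 0.066 (adjusted p = 0.000953). The share of all genes with arms apart was not counted. Atp5k (subunit e), Atp5j (coupling factor 6) and Atp5mpl (a small membrane subunit) were called lower at -0.32, -0.21 and -0.21. The catalytic α and β subunit genes Atp5a1 and Atp5b were at -0.07 and -0.08, the γ subunit gene Atp5c1 at -0.08, the oligomycin-sensitivity subunit gene Atp5o at -0.11 and the δ subunit gene Atp5d at -0.02, none called. Atp5g1 was at -0.11 (not called), and Atp5g2 was called lower when its copy was added (-0.18 ± 0.047, adjusted p = 0.0084) and not as deposited (-0.30 ± 0.119, adjusted p = 0.0932).

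**Figure D1:**
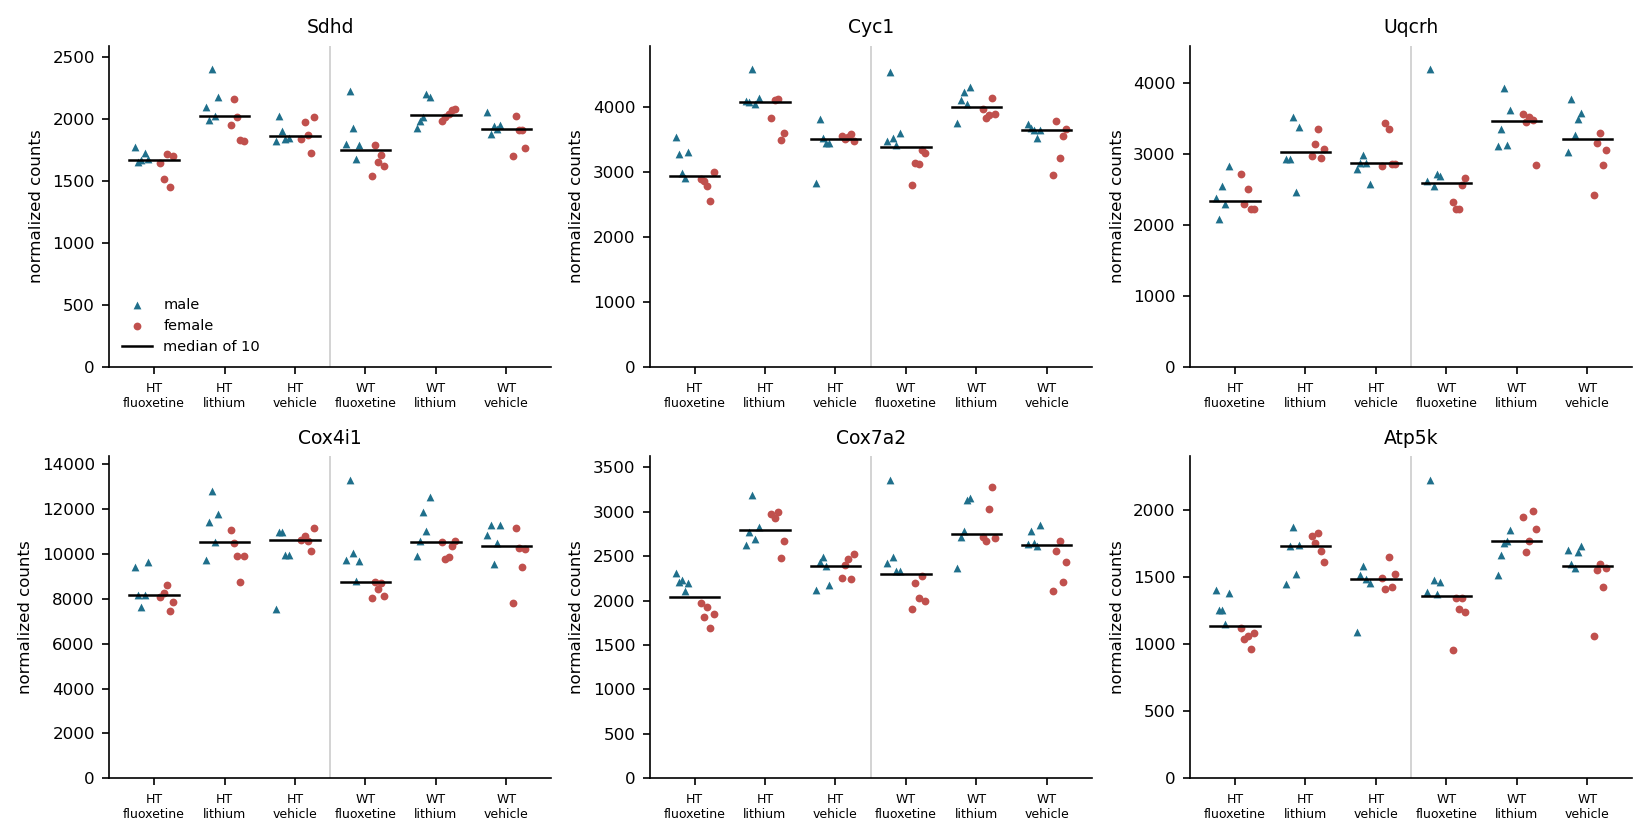
Normalized counts per library of 6 nuclear members in the 6 arms, with males as blue triangles, females as red circles and the median of 10 libraries as a black line. For Sdhd, Cyc1, Uqcrh, Cox4i1, Cox7a2 and Atp5k the HT fluoxetine median lies below the HT vehicle median, and for Sdhd, Cyc1, Cox7a2 and Atp5k the HT lithium median lies above it.

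Values of other kinds stood beside this lowering. Depth differed as given above, with fluoxetine and vehicle ranges that do not overlap, so depth and drug cannot be told apart, also by a covariate. With log2 depth as a covariate 24 members were lower and 0 higher. The library slope of expression on GC content had a median of -0.364 in HT fluoxetine and 0.497 in HT vehicle libraries, with HT vehicle male replicate 1 the lowest of the 60 at -2.73. With each library's slopes on transcript length and GC content as covariates, 11 were lower and 5 higher. Among cell type markers, 3 of 8 genes of cortical excitatory neurons were called higher (list median 0.23) and 1 of 12 of striatal medium spiny neurons lower (median -0.47). Olfactory bulb genes had 0 of 12 called with a median of -0.72; their summed level ran from 2520 to 11889 (median 3994) in HT fluoxetine libraries and from 3344 to 15664 (median 4918) in HT vehicle libraries. Genes of interneurons, astrocytes, oligodendrocytes, microglia, endothelial and mural cells, choroid plexus, erythroid cells and meningeal fibroblasts had 0 to 2 called in each list and list medians of -0.11 to 0.24. The excitatory neuron genes, which mark the labelled cortex, summed to 83692 to 111103 normalized counts (median 93982) in HT fluoxetine libraries and 76944 to 95178 (median 90342) in HT vehicle libraries. With the olfactory bulb and striatal scores as covariates 25 members were lower and 0 higher. The share of all genes called in these covariate fits is not given here, so their counts do not set the members apart from other genes. The part of depth in the result was not tested, and that of tissue makeup was not tested beyond the fit with these scores.

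In WT cortex fluoxetine against vehicle gave no called member, on a background of 0.124% of all genes called lower and 0.0843% higher. At an unadjusted p under 0.05 there were 17 members by limma, beside 1871 of all 17804 genes, and edgeR and DESeq2 called 0. The nuclear members had a median of -0.08, against -0.0025 over all genes tested, and 36 of 46 were negative. These signs come from the same libraries and are not independent, and the share of all genes with a negative difference was not counted. Sdhd had 1539 to 2224 normalized counts (median 1752) in WT fluoxetine libraries and 1706 to 2061 (median 1918) in WT vehicle libraries, and Uqcrh had 2224 to 4189 (median 2593) in WT fluoxetine libraries and 2423 to 3773 (median 3211) in WT vehicle libraries. The highest fluoxetine value of each came from 1 male library, WT fluoxetine male replicate 2, which was the highest of its group for the mean score of the nuclear members. Its slope of expression on transcript length over well-expressed genes was -0.170, where the other 59 libraries lay at -0.0462 to 0.0641, and its slope on GC content, 1.54, was the highest of the 60. Without that library, 11 members were called lower in WT cortex, and without WT vehicle female replicate 1, 3 were. The share of all genes called in these fits is not given here, so the counts do not set the members apart from other genes. The differences were -0.11 ± 0.041 for Sdhd (limma adjusted p = 0.276) and -0.27 ± 0.069 for Uqcrh (adjusted p = 0.0832). The difference between the fluoxetine responses, HT minus WT, was tested directly and gave 0 members by limma, edgeR and DESeq2 (0.0% of all genes by limma), with 7 at an unadjusted p under 0.05, beside 786 of all 17804 genes. It was -0.12 ± 0.049 for Sdhc and -0.16 ± 0.064 for Atp5j (limma adjusted p = 0.9997 for both), so the call in HT and its lack in WT cortex do not show that the genotypes differ.

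Under lithium, nuclear members of complexes II to V were higher than under vehicle in HT cortex, with 1 call in complex II that stood at the threshold. In HT cortex 13 nuclear members were higher and none lower, on a background of 7.44% of all genes called higher and 7.14% lower. They were 1 of 4 in complex II, 2 of 9 in complex III, 5 of 15 in complex IV and 5 of 17 in complex V, and the nuclear median was 0.11. Sdhd had 1824 to 2403 normalized counts (median 2024) in HT lithium libraries, against 1728 to 2029 (median 1862) in HT vehicle libraries, a log2 difference of 0.11 ± 0.041 at the edge of the threshold (limma adjusted p = 0.0498). That call was lost in 13 of the 20 fits that left out 1 library. Cyc1 had 3490 to 4585 (median 4088) in HT lithium libraries, against 2839 to 3822 (median 3518) in HT vehicle libraries, a rise of 0.21 ± 0.047 (adjusted p = 0.00166). Uqcrfs1, which carries the Rieske iron-sulfur cluster, had 2185 to 2651 (median 2448) in HT lithium libraries, against 2132 to 2377 (median 2273) in HT vehicle libraries, a rise of 0.10 ± 0.034 (adjusted p = 0.0311). The arms of all 3 genes overlapped, and the lithium arm stood higher at its lowest, median and highest library.

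In complex IV, Cox7a2 rose most clearly under lithium, with 2485 to 3193 normalized counts (median 2798) in HT lithium libraries, against 2125 to 2529 (median 2395) in HT vehicle libraries, and all 10 lithium libraries lay above their same-sex vehicle mean (log2 difference 0.26 ± 0.054, limma adjusted p = 0.000639). Cox6b1, a subunit on the cytochrome c side, had 4099 to 4869 (median 4654) in HT lithium libraries, against 3586 to 4328 (median 4039) in HT vehicle libraries (0.18 ± 0.051, adjusted p = 0.0106). These arms overlapped at their edges. Cox5a (0.23), Cox6c (0.19) and Cox8a (0.21) were called higher as well. In complex V, the c subunit gene Atp5g1 had 2879 to 3918 (median 3623) in HT lithium libraries, against 2687 to 3209 (median 3027) in HT vehicle libraries (0.23 ± 0.054, adjusted p = 0.00243). Atp5k had 1451 to 1873 (median 1738) in HT lithium libraries, against 1092 to 1649 (median 1490) in HT vehicle libraries (0.22 ± 0.070, adjusted p = 0.0264). Lithium and vehicle arms overlapped for both. Atp5d (0.25), Atp5e (0.20) and Atp5j (0.13) were called higher, and Atp5g3 (0.13) and Atp5l (0.14), both lower under fluoxetine, were not called.

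In WT cortex lithium gave 4 higher members and none lower, on a background of 2.46% called higher and 2.11% lower: Cyc1 (0.18 ± 0.047, limma adjusted p = 0.0131), Uqcrfs1 (0.15 ± 0.034, adjusted p = 0.00755), Cox5a (0.25 ± 0.071, adjusted p = 0.0306) and Atp5j (0.15 ± 0.045, adjusted p = 0.0392). Cyc1 had 3762 to 4317 normalized counts (median 4011) in WT lithium libraries, against 2954 to 3784 (median 3652) in WT vehicle libraries, and Uqcrfs1 had 2243 to 2617 (median 2514) in WT lithium libraries, against 2117 to 2364 (median 2247) in WT vehicle libraries. All 10 lithium libraries lay above the same-sex vehicle mean for both, and the arms overlapped. The nuclear median was 0.11 in WT cortex too. Cycs, the electron carrier between complexes III and IV, was called higher when its copy was added (0.26 ± 0.069, adjusted p = 0.0195), with 5233 to 6972 (median 5868) summed counts in WT lithium libraries, against 4285 to 5336 (median 5154) in WT vehicle libraries. The differences between the lithium responses, HT minus WT, gave 0 called members by limma, edgeR and DESeq2 (0.0% of all genes by limma) and 0 at an unadjusted p under 0.05, beside 996 of all 17804 genes. For Atp5c1 that difference was -0.13 ± 0.064 (95% interval -0.26 to 0.00).

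The number of lithium calls changed with depth as a covariate and with single libraries left out. The share of all genes called in these fits is not given here, so a change in the counts is not particular to the members. With depth as a covariate, 3 members were called higher in HT cortex and 0 in WT cortex. In HT cortex, leaving out 1 library gave 6 calls without HT lithium male replicate 5, 7 without HT lithium female replicate 2, HT lithium male replicate 3, HT vehicle female replicate 2 or HT vehicle male replicate 1, and 8 without HT lithium female replicate 1. In WT cortex it gave 2 without WT lithium female replicate 1 or 4, WT lithium male replicate 3 or WT vehicle male replicate 4, and 8 without WT lithium male replicate 1. Lithium females had 32.1 to 35.9 M reads and vehicle females 26.6 to 31.0 M, while lithium males had 25.1 to 33.5 M and vehicle males 26.7 to 30.3 M. The female ranges do not overlap, so in females depth and drug cannot be told apart. In HT cortex 10 of 12 striatal medium spiny neuron genes were called lower under lithium (list median -0.97). Their summed level was 6618 to 8984 normalized counts (median 7678) in HT lithium libraries and 6338 to 21091 (median 10552) in HT vehicle libraries. Oligodendrocyte genes had 4 of 8 called lower (median -0.40). With the olfactory bulb and striatal scores as covariates, 7 members were higher and 1 lower in HT cortex and 5 higher in WT cortex. Microglia genes in HT cortex had 3 of 7 called higher (median 0.13), and the other lists had 0 to 2 called. In WT cortex 3 of 8 endothelial and mural genes were lower (median -0.21), 2 of 7 interneuron genes were higher (median 0.04), 0 of 8 oligodendrocyte genes (median -0.29) and 0 of 12 striatal genes (median -0.16) were called, and the other lists had 0 or 1 called. The part of these in the result was not tested beyond the covariate fits.

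**Figure D2:**
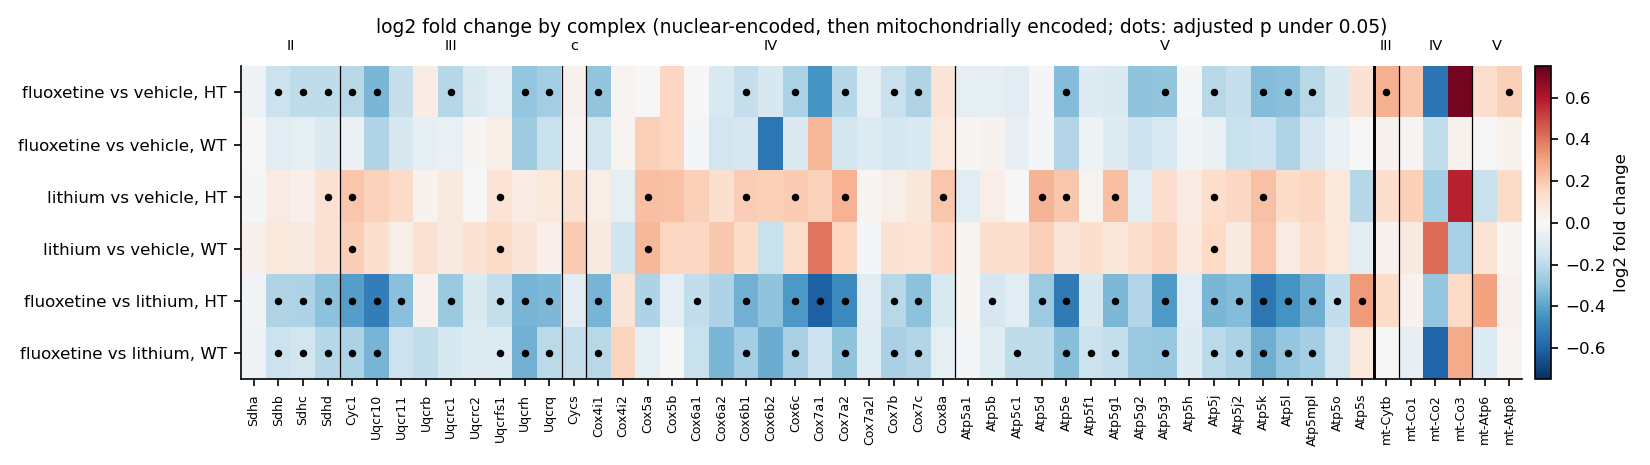
Log2 differences of the 52 members in the 6 drug comparisons, each with sexes averaged, as a heat map in which members are ordered by complex, nuclear before mitochondrial, and a dot marks a limma call. The 20 lower calls of fluoxetine against vehicle in HT cortex and the 13 higher calls of lithium against vehicle in HT cortex are spread over complexes II to V, and the WT rows of these drugs hold 0 and 4 calls.

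Set directly against each other, the drugs differed in more members than either did from vehicle. Fluoxetine against lithium in HT cortex gave 30 lower nuclear members and 1 higher, on a background of 12.6% lower and 12.2% higher, and in WT cortex 24 lower and none higher, on a background of 5.41% lower and 4.35% higher. The lists shared 22 members, 73.3% of those lower in HT cortex and 91.7% of those lower in WT cortex. The γ subunit gene Atp5c1 and the stator gene Atp5f1 were called in WT cortex (-0.19 and -0.16) and not in HT cortex (-0.08 and -0.12), a difference that was not tested. By complex, 3 of 4, 7 of 9, 9 of 15 and 11 of 17 nuclear members of complexes II, III, IV and V were lower in HT cortex, and 3, 5, 6 and 10 in WT cortex. In WT cortex 16 members were lower with length and GC slopes as covariates, a fit whose share of all genes called is not given here. Among cell type markers in HT cortex, 5 of 8 excitatory neuron genes (median 0.25), 3 of 8 oligodendrocyte genes (median 0.36), 2 of 8 endothelial and mural genes (median 0.15) and 2 of 3 choroid plexus genes (median 0.25) were higher, and 2 of 7 interneuron genes (median -0.14) and 2 of 8 astrocyte genes (median -0.04) were lower. In WT cortex 4 of 8 endothelial and mural genes (median 0.22), 3 of 8 oligodendrocyte genes (median 0.41) and 2 of 7 microglia genes (median 0.04) were higher, and 2 of 7 interneuron genes (median -0.10) were lower. The other lists had 0 or 1 called in each genotype, and the part of these markers in the result was not tested. These comparisons share their fluoxetine and lithium libraries with those above, and so are no separate evidence of direction.

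Sdhd had 1453 to 1775 normalized counts (median 1674) in HT fluoxetine libraries, against 1824 to 2403 (median 2024) in HT lithium libraries. No library of either arm reached into the other, and the log2 difference was -0.31 ± 0.041 (limma adjusted p = 3.66e-07). Cox7a2 gave -0.48 ± 0.054 (adjusted p = 2.73e-08), with 1694 to 2312 (median 2042) in HT fluoxetine libraries, against 2485 to 3193 (median 2798) in HT lithium libraries, again without overlap. Atp5k, with 968 to 1407 (median 1135) in HT fluoxetine libraries, against 1451 to 1873 (median 1738) in HT lithium libraries, gave -0.54 ± 0.070 (adjusted p = 2.04e-07), also without overlap. Cyc1 differed by -0.41 ± 0.047 (adjusted p = 2.73e-08), with the highest fluoxetine library, at 3549, above the lowest lithium library, at 3490. In all, 11 members had arms that did not overlap: Sdhc, Sdhd, Cox6b1, Cox6c, Cox7a2, Cox7c, Atp5e, Atp5g3, Atp5j, Atp5k and Atp5l. How many of all genes tested had arms apart was not counted, so this number does not set the members apart from other genes. Atp5s, whose product is known as factor B, was higher, with 286 to 389 (median 338) in HT fluoxetine libraries, against 174 to 375 (median 270) in HT lithium libraries (0.32 ± 0.091, adjusted p = 0.00714).

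In WT cortex Sdhd differed by -0.22 ± 0.041 (limma adjusted p = 0.000698), Cox7a2 by -0.30 ± 0.054 (adjusted p = 0.000416), Atp5k by -0.36 ± 0.070 (adjusted p = 0.000806) and Cyc1 by -0.24 ± 0.047 (adjusted p = 0.000887). For each of these 4 genes, 9 of 10 WT fluoxetine libraries lay below the lithium mean of their sex. Atp5k had 955 to 2225 (median 1361) in WT fluoxetine libraries, against 1519 to 1996 (median 1771) in WT lithium libraries. No member's arms were free of overlap in WT cortex, where the share of all genes with arms apart was not counted either.

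Averaged over the nuclear members, each library's score (the mean log2 deviation from the mean of all 60) was -0.32 to -0.03 (median -0.17) in HT fluoxetine libraries, -0.06 to 0.24 (median 0.08) in HT lithium libraries and -0.19 to 0.05 (median 0.00) in HT vehicle libraries. It was -0.19 to 0.40 (median -0.09) in WT fluoxetine libraries, 0.02 to 0.25 (median 0.13) in WT lithium libraries and -0.16 to 0.13 (median 0.04) in WT vehicle libraries. By sex, the medians under fluoxetine were -0.14 in HT males, -0.22 in HT females, 0.02 in WT males and -0.17 in WT females. Under lithium they were 0.06 in HT males, 0.11 in HT females, 0.15 in WT males and 0.12 in WT females, and under vehicle all 4 lay between -0.01 and 0.05.

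**Figure D3:**
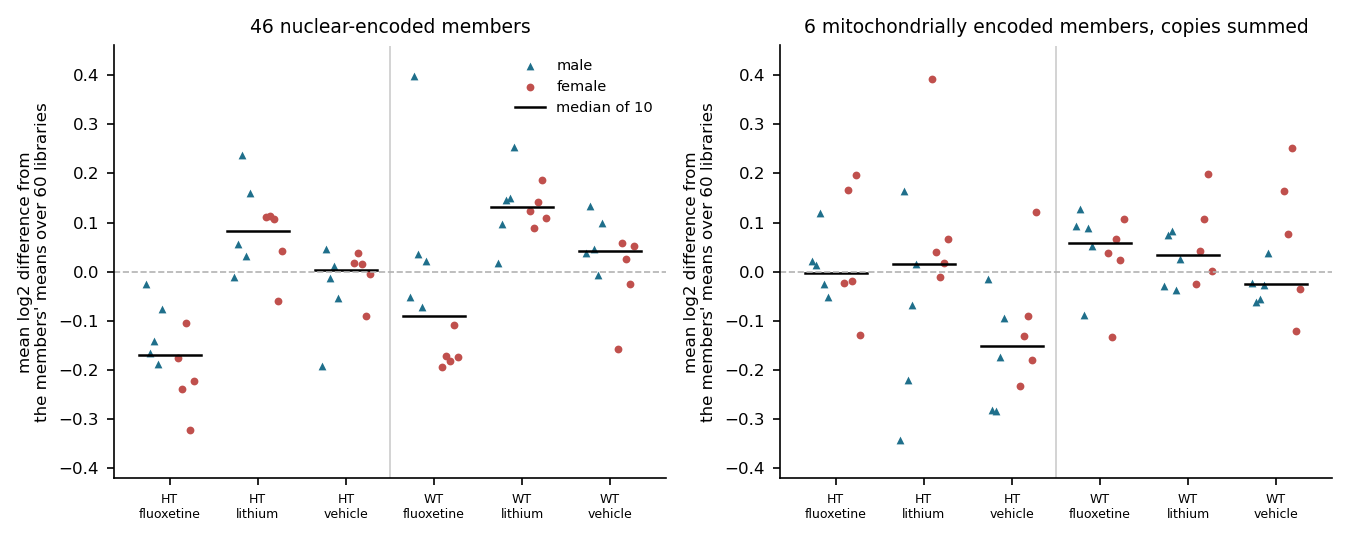
Mean log2 score per library of the 46 nuclear members (left) and of the 6 mitochondrial members with copies summed (right) in the 6 arms, with males as blue triangles, females as red circles and the median of 10 as a black line. The nuclear score has its lowest median, -0.17, in the HT fluoxetine arm and its highest, 0.13, in the WT lithium arm, and the mitochondrial score has its lowest median in the HT vehicle arm.

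Among the 6 mitochondrial members, as deposited, mt-Co2, mt-Co3 and mt-Atp6 varied widely between replicates: over the 60 libraries the highest value was 5.12, 9.16 and 3.32 times the lowest. The copies held 83.0%, 85.2% and 93.5% of the summed counts of each pair. With the copies added, the same ratios were 1.36, 1.80 and 1.48, and the median within-group coefficient of variation was 5.80%, 8.70% and 6.48%, where it was 35.2%, 42.4% and 22.8% as deposited. The summing was chosen after their values were seen, so the deposited values stand beside the summed ones below.

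mt-Co2, which holds the copper centre that first takes electrons from cytochrome c, had 19088 to 47915 normalized counts (median 31679) in HT fluoxetine libraries and 18460 to 73348 (median 56300) in HT vehicle libraries as deposited. Summed with its copy it had 252291 to 302318 (median 266464) in HT fluoxetine libraries and 232242 to 280715 (median 247165) in HT vehicle libraries. The direction turned with the summing: the log2 difference was -0.55 ± 0.250 as deposited (limma adjusted p = 0.156) and 0.12 ± 0.045 summed (adjusted p = 0.0824). mt-Co3, the other core subunit, was at 0.72 ± 0.325 as deposited and 0.04 ± 0.069 summed. Under lithium in HT cortex, mt-Co2 was at -0.26 as deposited and 0.11 summed, mt-Co3 at 0.58 and 0.17, and mt-Atp6, the proton channel subunit of complex V, at -0.17 and 0.11. None of these was called.

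**Figure D4:**
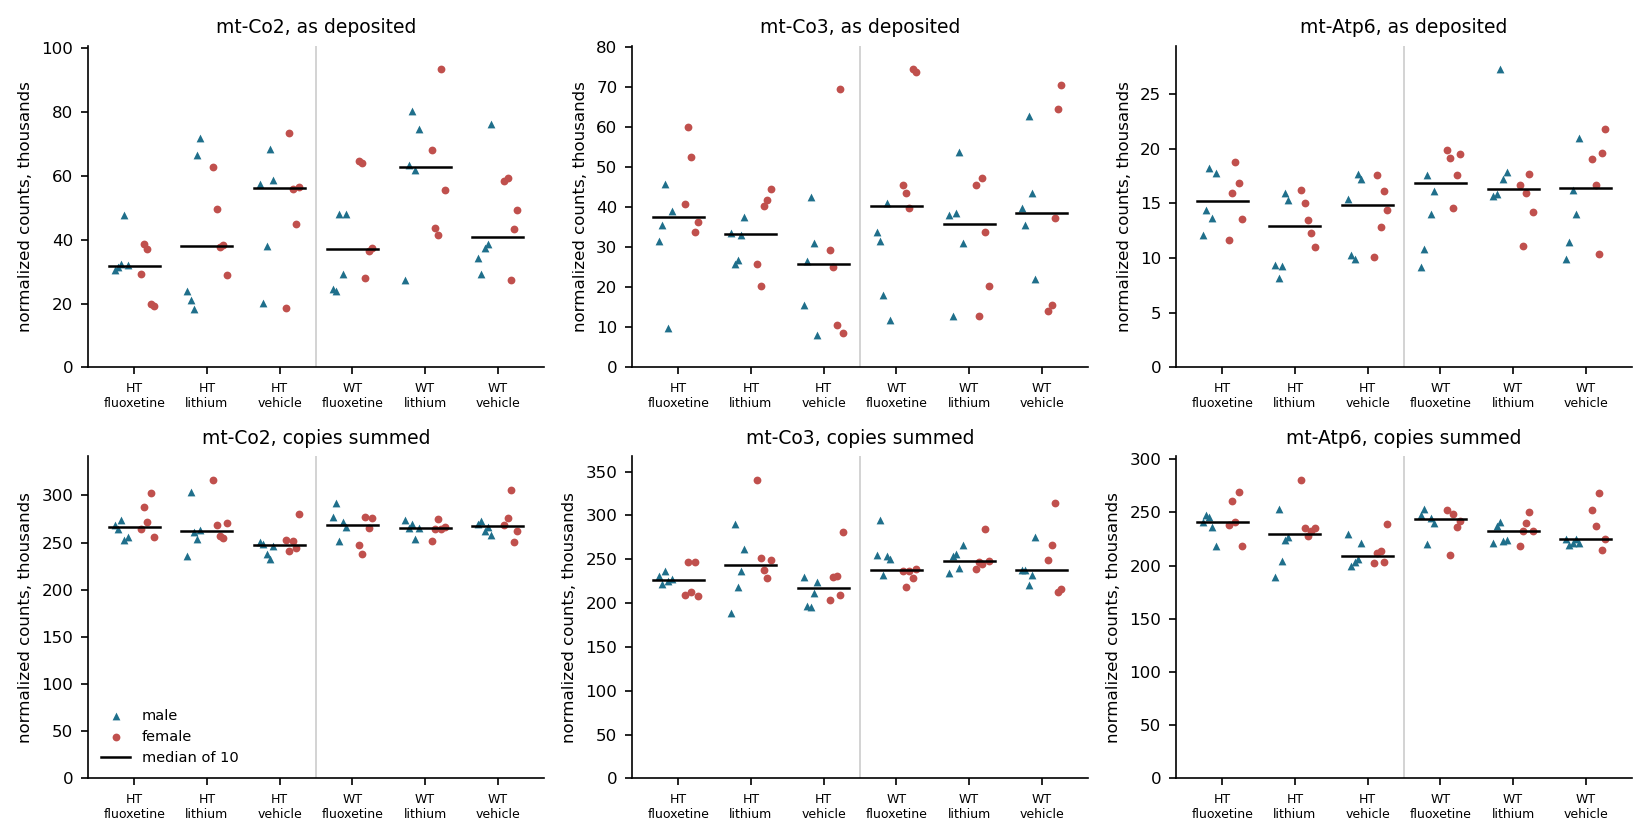
Normalized counts per library, scaled to kilocounts, of mt-Co2, mt-Co3 and mt-Atp6 in the 6 arms, as deposited (top) and with identical chromosome 1 copies summed (bottom), with males as blue triangles, females as red circles and the median of 10 as a black line. The scatter within an arm is wide in the top row, where mt-Co3 spans a 9.16-fold range over 60 libraries, and narrow in the bottom row, where it spans 1.80-fold.

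No such copy of mt-Cytb or mt-Atp8 was found among the genes with values, and the rest of the nuclear genome was not searched. On the mitochondrial chromosome mt-Atp8 (bases 7766 to 7969) lies between mt-Co2 and mt-Atp6 and overlaps the start of mt-Atp6 (base 7927). A copy of it inside the chromosome 1 block is therefore possible. mt-Cytb had 221553 to 324695 normalized counts (median 244787) in HT fluoxetine libraries, against 182530 to 261244 (median 212348) in HT vehicle libraries, and mt-Atp8, a small membrane subunit of complex V, had 24482 to 33870 (median 27706) in HT fluoxetine libraries, against 21808 to 27842 (median 24714) in HT vehicle libraries. The arms overlapped, with 10 and 9 of 10 fluoxetine libraries above their same-sex vehicle mean. mt-Cytb rose by 0.27 ± 0.076 (limma adjusted p = 0.0164) and mt-Atp8 by 0.18 ± 0.054 (adjusted p = 0.0257), and no other mitochondrial member was called as deposited. mt-Atp6 was at 0.13 ± 0.144 as deposited (adjusted p = 0.627), with 6 of 10 fluoxetine libraries above their same-sex vehicle mean, and at 0.18 ± 0.049 summed (adjusted p = 0.0125), with 10 of 10. With depth as a covariate the adjusted p was 0.172 for mt-Cytb and 0.0977 for mt-Atp8, and under quantile normalization 0.236 and 0.209, so both calls end there. The catalytic mt-Co1 was at 0.20 ± 0.078 under fluoxetine (adjusted p = 0.0857) and 0.18 ± 0.078 under lithium (adjusted p = 0.116) in HT cortex. In WT cortex the 6 mitochondrial members were at -0.18 to 0.03 under fluoxetine and -0.24 to 0.42 under lithium as deposited, none called. With copies summed, mt-Co2, mt-Co3 and mt-Atp6 in WT cortex were at -0.02, -0.00 and 0.05 under fluoxetine and at -0.02, 0.04 and 0.01 under lithium, none called. All mitochondrial genes together took a median of 6.5% of reads in HT fluoxetine, 6.42% in HT lithium, 5.90% in HT vehicle, 6.75% in WT fluoxetine, 6.66% in WT lithium and 6.30% in WT vehicle libraries, the HT vehicle arm being the lowest.

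Genotype was compared within each treatment. Under vehicle no member was called (0.152% of all genes in either direction), with 7 at an unadjusted p under 0.05 by limma, beside 1575 of all 17804 genes, and 0 called by edgeR or DESeq2. The members nearest to a call were mitochondrial: mt-Atp8 had 21808 to 27842 normalized counts (median 24714) in HT vehicle libraries and 25525 to 31116 (median 27750) in WT vehicle libraries, a difference of -0.17 ± 0.054 (limma adjusted p = 0.222), with mt-Co1 at -0.20 ± 0.078 and mt-Cytb at -0.19 ± 0.076. Under fluoxetine no member was called by limma (0.135% of all genes) or edgeR. At an unadjusted p under 0.05 there were 23 members by limma, all of them nuclear, beside 2039 of all 17804 genes. DESeq2 called 7, all lower in HT, and the share of all genes it called is not given here. Sdhc was the nearest, with 1337 to 1597 (median 1495) in HT fluoxetine libraries and 1494 to 1983 (median 1588) in WT fluoxetine libraries, a difference of -0.14 ± 0.035 (limma adjusted p = 0.0593) with all 10 HT libraries below their same-sex WT mean. Cyc1 (-0.18 ± 0.047), Atp5g3 (-0.21 ± 0.055) and Cox7c (-0.22 ± 0.058) had adjusted p of 0.0774, 0.084 and 0.0885. Under lithium no member was called by limma (0.573% of all genes), edgeR or DESeq2, with 10 at an unadjusted p under 0.05 by limma (beside 2356 of all 17804 genes) and Atp5c1 (-0.15 ± 0.045, adjusted p = 0.109) the nearest. Within each treatment and sex, each of the 6 comparisons was adjusted on its own and the calls were added. They gave 0 members (0.0534% of all tests) by limma, 0 by edgeR and 4 by DESeq2.

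The sexes were compared over all treatments and genotypes. Cyc1 was higher in males by 0.11 ± 0.027 (limma adjusted p = 0.0376), Sdhb by 0.10 ± 0.026 (adjusted p = 0.0442) and Cox7a2 by 0.11 ± 0.031 (adjusted p = 0.0495), on a background of 0.769% of genes higher in males and 0.416% lower. Of the 46 nuclear members 43 were positive, with a median of 0.07, against -0.0033 over all genes tested. All 6 mitochondrial members were negative, with none called. The members share the same libraries, so these signs are not independent, and the share of all genes with each sign was not counted. All 3 calls ended with length and GC slopes as covariates and with the olfactory bulb and striatal scores as covariates, 0 calls each. The count also rested on single libraries: leaving out 1 of the 60 at a time gave between 0 calls (for example without HT fluoxetine female replicate 4) and 16 (without HT vehicle male replicate 1).

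Within 1 sex, fluoxetine against vehicle in HT cortex called 0 members in males (0.219% of all genes lower, 0.376% higher) and 20 lower members in females (3.93% lower, 2.94% higher). In males 14 members had an unadjusted p under 0.05 by limma, beside 2009 of all 17804 genes, and edgeR and DESeq2 called 0. Atp5k had 1151 to 1407 normalized counts in HT fluoxetine males, against 1092 to 1589 in HT vehicle males, and 968 to 1120 in HT fluoxetine females, against 1412 to 1649 in HT vehicle females. The female arms were apart, at -0.51 (limma adjusted p = 0.00206), and the male arms overlapped. In females 6 members were called with length and GC slopes as covariates and 12 without HT fluoxetine female replicate 4. Lithium against vehicle in HT cortex called 10 higher members in males (6.61% of all genes), but 2 without HT lithium male replicate 3, 3 without its replicate 5, 4 without HT vehicle male replicate 1 and 6 without HT lithium male replicate 2 or HT vehicle male replicate 5, and 1, mt-Atp8, in females (0.696%). mt-Atp8 in females had 29240 to 34819 in HT lithium libraries and 21808 to 27842 in HT vehicle libraries (0.38, adjusted p = 0.00626). In WT cortex lithium called 0 members in males by limma, edgeR and DESeq2 (0.972% of all genes by limma), with 5 at an unadjusted p under 0.05, beside 3016 of all 17804 genes. In females limma called 1, Atp5g3 (0.309% of all genes), at 0.30 (adjusted p = 0.0495). The female count was 0 under edgeR, with no filter, a pseudocount of 5, depth as a covariate or only the compared libraries, and 0 without WT lithium female replicate 1, 2, 3 or 4 or WT vehicle female replicate 1 or 5. It was 2 without WT lithium female replicate 5 or WT vehicle female replicate 4. For the covariate fits and left-out libraries within 1 sex, the share of all genes called is not given here. Fluoxetine in WT cortex called 0 in males (0.0786% of all genes) and 0 in females (0.0%) by limma and edgeR, with 7 and 20 at an unadjusted p under 0.05, beside 1255 and 1930 of all 17804 genes. DESeq2 called 1 in males and 0 in females. The difference between the sexes in response, male minus female, was tested for both drugs and genotypes and gave 0 members by limma, edgeR and DESeq2 (0.0% of all tests), so that the unequal counts do not show that the sexes differ. At an unadjusted p under 0.05 there were 8 members for fluoxetine and 4 for lithium in HT cortex, and 9 and 6 in WT cortex. Over all genes, 6771 of 71216 tests in these 4 comparisons together were under 0.05.

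A property the rule did not use, transcript length, was set beside the differences. Over the 46 nuclear members, the log2 difference of fluoxetine against vehicle in HT cortex correlated with log2 transcript length at Pearson's r = 0.40 and Spearman's rho = 0.48, a description across genes that share the same libraries. The 25 members with transcripts under 800 bases had a median of -0.22 with 13 called lower, and the 21 longer members a median of -0.10 with 7 called lower. For lithium against vehicle in HT cortex the correlations were -0.44 and -0.45, with medians of 0.16 in short and 0.06 in long members. In WT cortex the correlations were 0.33 and 0.50 for fluoxetine against vehicle. For lithium against vehicle they were weaker in WT cortex, at -0.14 and -0.15, with medians of 0.12 in short and 0.11 in long members and 1 and 3 called higher. For fluoxetine against lithium they were 0.53 and 0.57 in HT cortex and 0.47 and 0.54 in WT cortex. The library slope of expression on length over all well-expressed genes had a median of 0.026 in HT fluoxetine, -0.006 in HT lithium and 0.006 in HT vehicle libraries, and of 0.023 in WT fluoxetine, -0.028 in WT lithium and -0.013 in WT vehicle libraries. Its part in the result was not tested beyond the covariate fits given above.

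**Figure D5:**
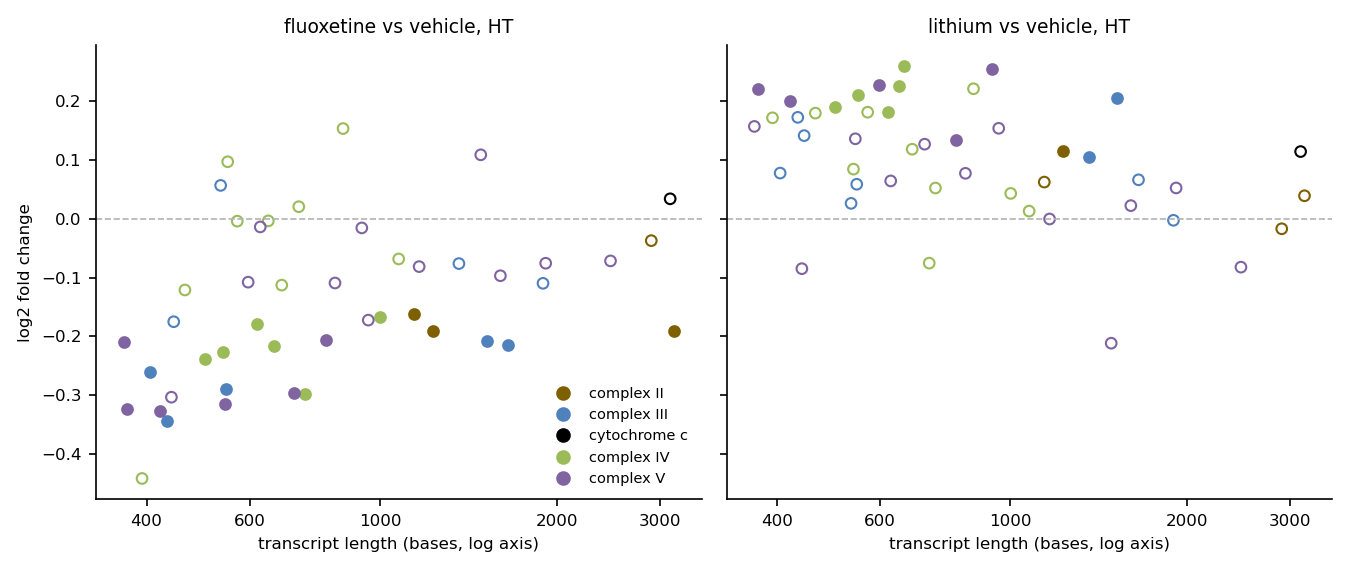
Log2 difference of each nuclear member against transcript length in bases (log axis) for fluoxetine against vehicle (left) and lithium against vehicle (right) in HT cortex, with limma calls as filled points. Shorter transcripts lie lower under fluoxetine, with a median of -0.22 below 800 bases and -0.10 above, and higher under lithium, with medians of 0.16 and 0.06.

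Other mitochondrial genes were counted as lists. Of all genes tested, 5.54% were called lower and 4.7% higher under fluoxetine against vehicle in HT cortex. Under lithium against vehicle 7.44% were higher and 7.14% lower in HT cortex, and 2.46% and 2.11% in WT cortex. For fluoxetine against lithium the shares were 12.6% lower and 12.2% higher in HT cortex, and 5.41% and 4.35% in WT cortex. Of 39 assembly factors of complexes II to V, 9 were lower and 0 higher under fluoxetine against vehicle in HT cortex, among them Sdhaf4, a chaperone of the complex II flavoprotein (-0.33 ± 0.074, limma adjusted p = 0.00317), Cox17, a copper chaperone of complex IV (-0.24 ± 0.057, adjusted p = 0.00508), and Higd1a, a small complex IV factor (-0.21 ± 0.055, adjusted p = 0.0095). Lithium against vehicle gave 4 higher, including Cox19 (0.13) and Cmc2 (0.23), and 2 lower, including Surf1 (-0.18), in HT cortex, and 2 higher, Atpaf1 (0.20) and Cox11 (0.22), in WT cortex. Fluoxetine against lithium gave 11 lower and 1 higher in HT cortex, with Cox14 at -0.28 and the complex III factor Uqcc2 at -0.41, and 9 lower in WT cortex. The list medians were -0.04, 0.04, 0.04, -0.08 and -0.08 in the order given, against -0.16, 0.11, 0.11, -0.25 and -0.19 for the nuclear subunits.

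Of 13 enzymes of the tricarboxylic acid cycle, 1 was lower under fluoxetine against vehicle in HT cortex (Fh1, fumarase, -0.17 ± 0.043, limma adjusted p = 0.00736), none under lithium in HT cortex, and 1 was higher under lithium in WT cortex (Idh3b, 0.13). With 5.54% of all genes lower under fluoxetine in HT cortex and 2.46% higher under lithium in WT cortex, 1 call is not read as a response of the list. Of 18 regulators of mitochondrial biogenesis, 2 were lower and 0 higher under fluoxetine in HT cortex: Nrf1 (-0.17 ± 0.050, adjusted p = 0.0202) and Esrra (-0.18 ± 0.055, adjusted p = 0.0236). The list median was -0.0004, against -0.0036 over all genes tested. Gabpa, Gabpb1 and Yy1, which like these 2 encode factors whose motifs were searched above, were on the list and not called. Whether the level of any factor goes with that of the members was not tested. Under lithium in HT cortex 5 were higher and 1 lower, with Esrra at 0.23 ± 0.055 (adjusted p = 0.00237), Mterf3 at 0.30 and the mitochondrial RNA polymerase gene Polrmt at 0.26. Of 14 genes of mitochondrial RNA processing and decay, 1 was higher (the poly(A) polymerase gene Mtpap, 0.21) and 2 lower (Tbrg4, -0.20, and Slirp, -0.23) under fluoxetine in HT cortex, and 2 were higher and 1 lower under lithium, beside 7.44% and 7.14% of all genes. WT cortex had no call in these lists under fluoxetine, and under lithium none among the biogenesis and RNA genes. Usmg5, listed by RefSeq as the ATP synthase gene Atp5md and outside the rule by its symbol, was at -0.12 ± 0.079 (adjusted p = 0.357) under fluoxetine against vehicle and -0.28 ± 0.079 (adjusted p = 0.0072) under fluoxetine against lithium in HT cortex.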

How the data were processed

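Gene-level signal values for 18088 genes in 60 libraries were deposited, made by dividing each library's gene counts by its own size factor. Per the submitters' processing notes, the authors used Salmon 0.11.2, R 3.6.0 and DESeq2 1.19.11 with GRCm38; the annotation, strand setting, transcript-to-gene step and any filter are not given in the sources used here. From the steps of the low values, whole reads were recovered for 100% of the values within a tolerance of 0.01, with size factors of 0.85 to 1.25 and 25.1 to 36.6 megareads per library. Symbols came from GENCODE release M21 (18077 IDs matched, 11 did not). log2(value + 1) was fitted with limma 3.58.1 in R 4.3.3 on 12 group means with 48 residual degrees of freedom, over 17804 genes with a value of at least 10 in at least 5 libraries (284 genes removed). A call is a Benjamini-Hochberg adjusted p under 0.05 over all genes tested, differences are on the log2(value + 1) scale, and ± is a standard error unless an SD is named. The test was checked on simulated counts, drawn independently for each gene with no shared library effect but depth. Of genes changed 1.2-fold, 46 of 67 were called in the right direction, of those changed 1.5-fold 64 of 67, and of those changed 2-fold 66 of 66. Of the unchanged genes 2 were called. Changes under 1.2-fold were not simulated, so the check does not cover the smaller differences reported here. edgeR 4.0.16 and DESeq2 1.42.0 on the recovered reads, other scalings, filters, pseudocounts, covariates and left-out libraries were alternatives. Counts of members under these alternatives come without the share of all genes called in the same fit. They do not show a change particular to the members.

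Copies were transcripts with at least 95% identity over at least 150 aligned bases, covering at least 50% of the member or 80% of the copy; strand and multi-mapping settings that could split their reads are unknown. Length and GC slopes came from 12473 genes with a mean of at least 100. Members and lists were chosen with earlier results of these data known, so no count over them is independent support. Members with values in full were, in each complex, those with the smallest p among members above a mean of 50, and a few others were named for their role after their values were seen. The shared replicate numbers were checked and did not pair samples. Depth limits precision mostly for the rare isoforms. Promoter sequences are from RefSeq on GRCm38.p6.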

Additional observations from a re-analysis of the deposited data

Results flagged for a closer look

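Within 12 groups of 5 libraries, the nuclear and the mitochondrial mean scores were searched for a library apart from its group, 24 checks in all, of which chance gives about 1 in 20. In WT fluoxetine males, replicate 2 had the highest nuclear score, 0.398, with the other 4 at -0.0716 to 0.0369. In WT fluoxetine females, replicate 4 had the highest nuclear score, -0.108, with the other 4 at -0.193 to -0.171. In HT lithium females, replicate 1 had the highest mitochondrial score with copies summed, 0.392, with the other 4 at -0.00967 to 0.0672. The reasons were not tested.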

How the results depend on the processing

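Leaving out 1 library at a time, the count of called members ranged from 0 to 2 for HT against WT under fluoxetine, 0 to 1 under lithium, 0 to 11 for fluoxetine against vehicle in WT cortex, 6 to 17 and 2 to 8 for lithium against vehicle in HT and WT cortex, and 0 to 16 for male against female. Within 1 sex it ranged from 0 to 1 and 12 to 20 for fluoxetine in HT males and females, 2 to 12 for lithium in HT males, 0 to 1 and 0 to 2 for lithium in WT males and females, and 0 to 2 for genotype within treatment and sex. Fluoxetine against vehicle in HT cortex gave 19 to 23 calls, and fluoxetine against lithium 29 to 32 in HT and 20 to 34 in WT cortex. The 38 named calls were picked for the smallest p in each complex and comparison, so they are among the likeliest to hold. All kept their sign under each other setting. With depth as a covariate 28 were still called, 31 with the olfactory bulb and striatal scores, 34 under quantile normalization, 36 with length and GC slopes, and 38 under edgeR, DESeq2 and the replicate block.

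For HT against WT under fluoxetine, calls numbered 1 with a filter at 50, 7 under DESeq2 and 7 with the olfactory bulb and striatal scores, all lower, and for genotype within treatment and sex 4 under DESeq2 and 2 with those scores. Without replicate 1 of the HT vehicle males together with replicate 2 of the WT fluoxetine males, fluoxetine against vehicle gave 16 lower members in WT cortex, 3 called in HT males and 1 in WT females, and lithium gave 9 in WT cortex, 2 in HT females and 6 in WT females. For lithium in HT cortex, calls numbered 8 when only the compared libraries were fitted, 3 with depth and 8 with the olfactory bulb and striatal scores; in WT cortex they numbered 0 with depth and 11 with length and GC slopes. Lithium in HT females gave 0 calls with only the compared libraries and 11 with length and GC slopes; in HT males it gave 2 with only the compared libraries and 3 with depth, with length and GC slopes, or with the olfactory bulb and striatal scores. Lithium in WT females gave 0 with no filter, a pseudocount of 5, edgeR, only the compared libraries or depth, 2 under quantile normalization or with copies summed, 3 with a filter at 50 or with the replicate block, 4 with the olfactory bulb and striatal scores, 5 under DESeq2 and 6 with length and GC slopes; in WT males it gave 1 with only the compared libraries or with length and GC slopes. Fluoxetine gave 6 calls in HT females with length and GC slopes and 1 in WT males under DESeq2 or with length and GC slopes. Male against female gave 1 call under quantile normalization, 8 under DESeq2, 13 with depth, 0 with length and GC slopes or with the olfactory bulb and striatal scores, and 10 without both named libraries, and the sex difference in drug response gave 1 with those scores. The share of all genes called in each of these fits is not given here, and the cause of these changes was not tested.

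Among the 73 differences of single members that were followed under the alternatives, directions turned in 5 cases. Mitochondrial members under a drug against vehicle in WT cortex were not among those followed. With copies summed, mt-Co2 was at 0.12 under fluoxetine against vehicle and 0.11 under lithium against vehicle in HT cortex and at 0.13 for the lithium response, HT minus WT, and mt-Atp6 was at 0.11 under lithium in HT cortex. Under quantile normalization mt-Cytb was at -0.0081 under lithium in HT cortex. The replicate numbers did not pair the libraries: in 0 of 66 pairs of groups did all 5 correlations pass 0.1, and with the number as a block lithium in WT females alone changed its count of members by over 1.5 times.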
